A study of Mus musculus with 5 samples.

Results

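The genes described here encode the ion and water transport machinery of colonocytes, the absorptive epithelial cells of the colon. They were chosen by name, 10 of the 52143 mouse genes in the deposited table, and comprise the exchangers Slc26a3, Slc26a2 and Slc9a3, the carbonic anhydrases Car1, Car2 and Car4, the water channels Aqp8 and Aqp4, and the ion channels Scnn1a and Cftr. Their mRNA was measured by RNA-Seq in colon tumors of 5 mice. The 2 Control mice (replicates 1 and 4) carried Villin1-Cre-ERT, a Cre recombinase that tamoxifen activates in the epithelium of the intestine, where the villin promoter is active. The 3 SIGLEC12 mice (replicates 2, 3 and 4) carried the same Cre together with human SIGLEC12 as a knock-in, the gene of the lectin Siglec-XII, expressed once that Cre is active. All mice received tamoxifen for 5 days, azoxymethane, a colon carcinogen, at 10 mg/kg, and 4 cycles of dextran sodium sulfate, which injures the colon epithelium, at 2.0% for 5 days, each cycle with 14 days of recovery. Tumors were taken on day 87. The series text gives 3 mice in each condition, so 1 Control mouse was not analysed here. By the study's methods the mice were female and young adults when tamoxifen was given, and transcripts of the transgene were not analysed here.

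Surface colonocytes absorb salt by pairing an exchanger that takes up sodium for protons, NHE3, with one that takes up chloride for bicarbonate, DRA. Carbonic anhydrases hydrate carbon dioxide and so provide the protons and bicarbonate that both exchangers need, and water follows the salt. In the crypts the flow is opposite, since chloride enters the cell by a basolateral cotransporter and leaves through the channel CFTR. Absorptive genes are a feature of mature colonocytes, and their loss is a known trait of colon tumors and of inflamed colon.

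Slc26a3, which encodes DRA, was lower in all 3 SIGLEC12 tumors than in both Control tumors, and it had the largest difference of the members on the deposited scale (with a pseudocount of 0.1, Slc9a3 at 1.78 exceeded its -1.68 in size, and without Control replicate 4, 1.05 exceeded -0.86). The other members most typical of surface colonocytes, Car1, Car4 and Aqp8, had lower mean levels in SIGLEC12, with overlapping samples. Cftr and Slc9a3, the gene for NHE3, had higher mean levels, which for Cftr turned to a lower one relative to columnar epithelium markers. Levels are the deposited log2(TPM + 1), where TPM is the abundance of a transcript per unit length relative to all RNA in its sample. Differences are SIGLEC12 minus Control on this scale, and errors are SD between mice unless SE is named. In bulk tumor RNA, fewer cells of a type and less RNA per cell cannot be told apart. Since TPM keeps no read count, the depth behind each value is unknown.

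The sequence context of Slc26a3 (ENSMUSG00000001225, chr12:31390871-31473917 on GRCm38, plus strand) is shown first because this gene was lower in all SIGLEC12 tumors. Beside it stand the promoters of Car4 (ENSMUSG00000000805, chr11:84957786-84966044, plus strand) and Aqp8 (ENSMUSG00000030762, chr7:123462291-123468004, plus strand), whose means were also lower, and that of Cftr (ENSMUSG00000041301, chr6:18170687-18322768, plus strand), whose mean was higher. Each runs from 250 bases before to 50 bases after the start of transcription in RefSeq on GRCm38.p6, 5′ to 3′. Capitals mark TATAAA, the core of a TATA box, and CAAAGGTCA, a core sequence bound by HNF4 family receptors. Both motifs were searched on both strands and do not overlap each other.
Slc26a3, chr12:31437969-31438268: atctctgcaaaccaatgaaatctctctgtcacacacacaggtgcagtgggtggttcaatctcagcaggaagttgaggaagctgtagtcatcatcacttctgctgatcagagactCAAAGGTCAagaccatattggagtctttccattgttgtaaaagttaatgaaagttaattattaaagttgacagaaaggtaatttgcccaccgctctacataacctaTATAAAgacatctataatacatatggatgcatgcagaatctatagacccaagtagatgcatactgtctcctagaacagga
Car4, chr11:84957504-84957803: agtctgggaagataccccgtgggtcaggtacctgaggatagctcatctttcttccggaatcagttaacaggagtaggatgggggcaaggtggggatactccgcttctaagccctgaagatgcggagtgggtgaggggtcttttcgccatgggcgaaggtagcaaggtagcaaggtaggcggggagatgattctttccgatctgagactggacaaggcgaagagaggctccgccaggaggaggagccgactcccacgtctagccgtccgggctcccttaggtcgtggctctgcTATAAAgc
Aqp8, chr7:123462044-123462343: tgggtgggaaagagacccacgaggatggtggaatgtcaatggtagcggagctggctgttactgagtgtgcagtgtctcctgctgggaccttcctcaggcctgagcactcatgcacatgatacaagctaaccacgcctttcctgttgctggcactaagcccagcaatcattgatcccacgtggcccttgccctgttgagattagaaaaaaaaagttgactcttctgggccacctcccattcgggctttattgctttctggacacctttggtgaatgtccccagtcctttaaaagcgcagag
Cftr, chr6:18170437-18170736: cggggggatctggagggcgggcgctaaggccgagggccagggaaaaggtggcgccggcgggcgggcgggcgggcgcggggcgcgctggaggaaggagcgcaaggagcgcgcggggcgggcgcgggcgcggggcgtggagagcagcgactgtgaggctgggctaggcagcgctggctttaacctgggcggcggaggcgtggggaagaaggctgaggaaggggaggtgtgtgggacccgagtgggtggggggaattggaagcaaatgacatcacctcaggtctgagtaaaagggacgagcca

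The Slc26a3 promoter held both motifs, TATAAA from base -30 and CAAAGGTCA from base -136 relative to the start. Of 32851 mouse promoters of this length, 13.62% held TATAAA and 0.48% held CAAAGGTCA. The Car4 window held TATAAA from base 42, past the start, and the Aqp8 and Cftr windows held neither string. The base composition ran from 39.3% G and C in Slc26a3 through 52.0% in Aqp8 and 57.3% in Car4 to 71.3% in Cftr, with a median of 52.7% over all promoters. The RefSeq start of Slc26a3 lay 47348 bases downstream of the gene start in the GENCODE annotation, so the window belongs to an internal start of the annotated gene. A match describes these letters only, and no binding was measured. Of the 8 members outside chromosome 18, 5 had a promoter in the table, and Car1, Car2 and Scnn1a were not among them.

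Tumor composition was examined next, because TPM is relative to all RNA of a tumor. The share of TPM held by protein-coding genes was 6.22% ± 0.733 (SD, n = 2) in the Control tumors. In the SIGLEC12 tumors it was 9.10% ± 0.532 (SD, n = 3), higher without overlap (two-sided exact permutation p = 0.1, the smallest that 2 against 3 tumors allow), and the median difference over the 10338 genes tested was 0.38. Columnar epithelium was present in these tumors, whose labels name the colon. Its 12 markers, led by Epcam and Cdh1, summed to 353 and 1012 TPM in Control replicates 1 and 4. In SIGLEC12 replicates 2, 3 and 4 they summed to 1284, 1275 and 1902 TPM. All 12 had higher means in SIGLEC12, with a median difference of 1.35, which was 0.59 without Control replicate 1, with 11 of 12 higher. Control replicate 1 stood apart, with the lowest columnar sum and the highest sum of 11 squamous epithelium markers, 3110 TPM against 497.8 to 1203 TPM in the other 4 tumors. Of these markers Krt14 was at 10.16 and Krt5 at 9.22 there, and none of the 11 was at 0. The list was not uniform. Krt4 was lowest there, at 4.30 against 5.85 to 7.45 in the other 4 tumors, and Krt13, at 7.99, lay below its 8.17 in SIGLEC12 replicate 2. Of 10 squamous markers tested, 9 had lower means in SIGLEC12, with a median difference of -1.01. Without Control replicate 1 the median was -0.25, with 7 lower and 3 higher. The 7 goblet markers, led by Muc2 and Tff3, had a median difference of 0.42 with 7 higher, but 3 were higher and 4 lower without Control replicate 1 (median -0.15) and likewise on the protein-coding scale (-0.13). As deposited, 9016 of the 10338 genes had higher means in SIGLEC12. The median difference was 0.85 over 5 tested fibroblast markers, 0.45 over 5 tested myeloid markers and 0.31 over 6 smooth muscle markers. No marker of endothelium (4) or lymphocytes (7) passed the filter, and none exceeded 1.61. The part of these differences in the transport genes was not tested, so each main result is also given relative to the protein-coding total, relative to the columnar markers, and without Control replicate 1.

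Slc26a3 stood at 3.32 in Control replicate 1 and 4.61 in Control replicate 4. In SIGLEC12 replicates 2, 3 and 4 it stood at 2.53, 2.04 and 2.82. The groups did not overlap, and the highest SIGLEC12 tumor lay below the lower Control tumor. The means were 3.97 ± 0.91 (SD, n = 2) and 2.46 ± 0.40 (SD, n = 3), a difference of -1.51 (SE 0.42), or 2.84-fold lower in SIGLEC12 on the log2(TPM + 1) scale. The limma test gave an unadjusted p of 0.0103 and a Benjamini-Hochberg adjusted p of 0.0974 over 10338 genes. Among the 9222 protein-coding genes tested, Slc26a3 had the 10th lowest difference. Without Control replicate 1 the difference was -2.15, and without Control replicate 4 it was -0.86 (limma unadjusted p = 0.0434), which is under 2-fold.

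No member passed an adjusted p under 0.05 with at least 2-fold in limma, and neither did any of the 10338 genes (0.0%). At an unadjusted p of at most 0.05 without regard to fold, 1 of 10 members and 3543 of all genes remained. With a 2-fold difference added, here called the unadjusted threshold, the member that passed was Slc26a3. That is 1 of 10 members lower, where 0.445% of all genes passed in that direction, and 0 of 10 higher, where 3.97% passed. The groups did not overlap in 1 member that was lower (1.67% of all genes) and in 2 that were higher (54.1% of all genes), so the second count was below the background. The members divided into 5 with higher and 5 with lower means, with a median of -0.07 beside 0.38 over all genes. These p-values measure only the spread between these 5 tumors. For each gene, limma estimated that spread partly from the other genes.

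**Figure D1:**
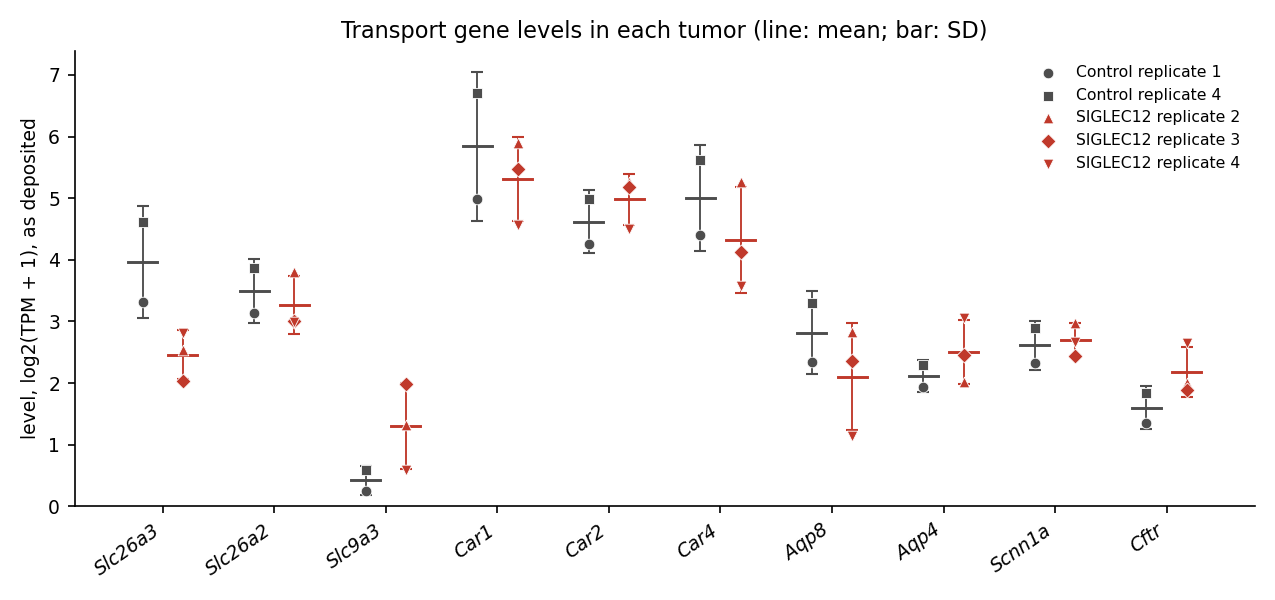
Levels of the 10 transport genes as log2(TPM + 1) (vertical axis) in the 2 Control tumors (grey) and 3 SIGLEC12 tumors (red), with a horizontal line for each group mean and a bar for the SD. Slc26a3 is the gene whose red points all lie under both grey points, and Slc9a3 and Cftr are those whose red points lie above, Slc9a3 narrowly (0.509 against 0.504 TPM).

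The other exchangers gave smaller differences, 1 in each direction. Slc26a2 (ENSMUSG00000034320, chr18:61192919-61211612, minus strand) encodes a sulfate transporter of the same family that is also abundant in colonocytes. It stood at 3.13 and 3.87 in Control and at 3.81, 3.01 and 2.99 in SIGLEC12. The groups overlapped across nearly the whole range, with a difference of -0.23 (SE 0.35, limma adjusted p = 0.635). Slc9a3 (ENSMUSG00000036123, chr13:74121457-74169442, plus strand) was the member of lowest level in Control, at 0.25 and 0.59. In SIGLEC12 it stood at 1.32, 1.99 and 0.59. The difference was 0.88 (SE 0.40, exact permutation p = 0.2, limma adjusted p = 0.165). SIGLEC12 replicate 4 was level with Control replicate 4. Without SIGLEC12 replicate 4 the difference was 1.24 and passed the unadjusted threshold. However, Slc9a3 reached a TPM of 1, the level needed for testing, only in SIGLEC12 replicates 2 and 3. Its tests therefore rest on tumors that admitted it because it was high there, and no support is drawn from them. The TPM of Slc9a3 were 0.192 and 0.504 in Control and 1.5, 2.98 and 0.509 in SIGLEC12, so these are differences between low values.

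Car1 was the most abundant member in all 5 tumors. It lies on chromosome 3 (ENSMUSG00000027556, chr3:14766216-14808368, minus strand), 77.9 kb from Car2 (ENSMUSG00000027562, chr3:14886273-14900770, plus strand), and both encode cytosolic enzymes, whereas CAR4 is anchored to the apical membrane. Car1 stood at 4.98 and 6.70 in Control and at 5.89, 5.48 and 4.56 in SIGLEC12. The Control tumors spanned most of the range and the groups overlapped, with a difference of -0.53 (SE 0.59, limma adjusted p = 0.511). Here the Control tumors decide the direction: without Control replicate 1 the difference was -1.39 (limma unadjusted p = 0.0417), and without Control replicate 4 it was 0.32.

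Car4 stood at 4.40 and 5.62 in Control and at 5.27, 4.13 and 3.58 in SIGLEC12. SIGLEC12 replicates 3 and 4 lay below both Control tumors and replicate 2 lay between them, for a difference of -0.69 (SE 0.57, limma adjusted p = 0.387). Car2 stood at 4.26 and 4.98 in Control and at 5.26, 5.19 and 4.50 in SIGLEC12. Its mean was higher in SIGLEC12 by 0.36 (SE 0.34, limma adjusted p = 0.443), with replicate 4 between the Control tumors, and the sign turned when the tumors were rescaled, as given below. The summed TPM of the carbonic anhydrases was 68.8 and 181 in Control and 133, 95.4 and 55.2 in SIGLEC12. Car2 made up 26.4% and 16.8% of it in Control and 28.0%, 37.2% and 39.2% in SIGLEC12, so all SIGLEC12 shares were above both Control shares. Car1 held 44.4% and 56.6% in Control against 43.8%, 45.6% and 40.9%, and Car4 held 29.2% and 26.6% against 28.2%, 17.3% and 19.8%.

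Aqp8 encodes an aquaporin of the surface colonocyte. It stood at 2.34 and 3.30 in Control and at 2.83, 2.35 and 1.14 in SIGLEC12. SIGLEC12 replicate 4 was the lowest of the 5 and the other SIGLEC12 tumors lay within the Control range, for a difference of -0.72 (SE 0.53, limma adjusted p = 0.336). Aqp4 (ENSMUSG00000024411, chr18:15389496-15410982, minus strand), an aquaporin of basolateral membranes, stood at 1.93 and 2.29 in Control and at 2.02, 2.46 and 3.06 in SIGLEC12. The tumor with the least Aqp8 had the most Aqp4. The difference for Aqp4 was 0.40 (SE 0.32, limma adjusted p = 0.367), which is close to the median over all genes.

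Among the channels, Scnn1a (ENSMUSG00000030340, chr6:125320659-125344943, plus strand), the alpha subunit of the epithelial sodium channel ENaC, stood at 2.33 and 2.90 in Control and at 2.98, 2.44 and 2.66 in SIGLEC12. The groups overlapped, with a difference of 0.08 (SE 0.26, limma adjusted p = 0.812). Cftr stood at 1.35 and 1.84 in Control and at 2.00, 1.88 and 2.65 in SIGLEC12. All 3 SIGLEC12 tumors were above both Control tumors, replicate 3 narrowly, and the difference was 0.58 (SE 0.28, exact permutation p = 0.2, limma adjusted p = 0.187). In the file, the transcript named beside Cftr is annotated as a target of nonsense-mediated decay and the one beside Car4 as a retained intron. Whether each value sums over all transcripts of its gene is not stated.

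The order of the members within a tumor, which does not depend on how the tumors are scaled, was the same in both Control tumors: Car1, Car4, Car2, Slc26a3, Slc26a2, Aqp8, Scnn1a, Aqp4, Cftr and Slc9a3. Slc26a3 ranked 4 there and ranked 7, 8 and 6 in SIGLEC12 replicates 2, 3 and 4. It made up 53.2% and 62.5% of the summed exchanger TPM in Control and 24.8%, 23.6% and 44.9% in SIGLEC12. By group means, Control neighbours that differed by less than the larger SD of the pair were Car1 and Car4, Car4 and Car2, Car2 and Slc26a3, Slc26a3 and Slc26a2, and Aqp8 and Scnn1a. In SIGLEC12 the means of Scnn1a, Aqp4, Slc26a3, Cftr and Aqp8 followed each other in this order, each within that spread of the next.

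Ratios between members of a tumor were compared for 6 pairs, chosen after the levels had been seen. The log2 ratio of Slc26a3 to Cftr, the apical exchanger to the crypt channel, was 2.54 and 3.18 in Control. It was 0.67, 0.21 and 0.21 in SIGLEC12, so Slc26a3 was the more abundant gene in every tumor but by far less in SIGLEC12. The difference was -2.50 (exact permutation p = 0.1, 0.24 after Benjamini-Hochberg adjustment over 6 pairs), and it lay between -2.82 and -2.17 with any 1 tumor left out. The ratio of Slc26a3 to Slc26a2 was 0.22 and 0.79 in Control and -1.45, -1.19 and -0.19 in SIGLEC12, a difference of -1.45 (exact permutation p = 0.2). Slc26a2 was therefore the more abundant of the pair in all SIGLEC12 tumors and in neither Control tumor.

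The ratio of Slc26a3 to Slc9a3, the partners of salt uptake, was 5.55 and 5.54 in Control and 1.68, 0.05 and 3.58 in SIGLEC12. The difference of -3.78 (exact permutation p = 0.2) had no overlap but a wide SIGLEC12 spread and rests on low Slc9a3 values. For Car1 to Car2 the ratio was 0.75 and 1.75 in Control and 0.64, 0.29 and 0.06 in SIGLEC12, a difference of -0.92 (exact permutation p = 0.1). For Car4 to Car2 it was 0.15 and 0.66 in Control and 0.01, -1.11 and -0.98 in SIGLEC12, a difference of -1.10 (exact permutation p = 0.2). Both ratios were lower in all 3 SIGLEC12 tumors, replicate 2 by the least. Aqp8 to Aqp4 gave 0.53 and 1.18 in Control and 0.99, -0.14 and -2.61 in SIGLEC12, with overlap (exact permutation p = 0.4). The adjusted p was 0.24 for the first 5 pairs and 0.4 for the last, and the exact permutation test cannot reach 0.05 with 2 and 3 tumors. The first 3 pairs share Slc26a3 and the next 2 share Car2, so their differences are not separate results.

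**Figure D2:**
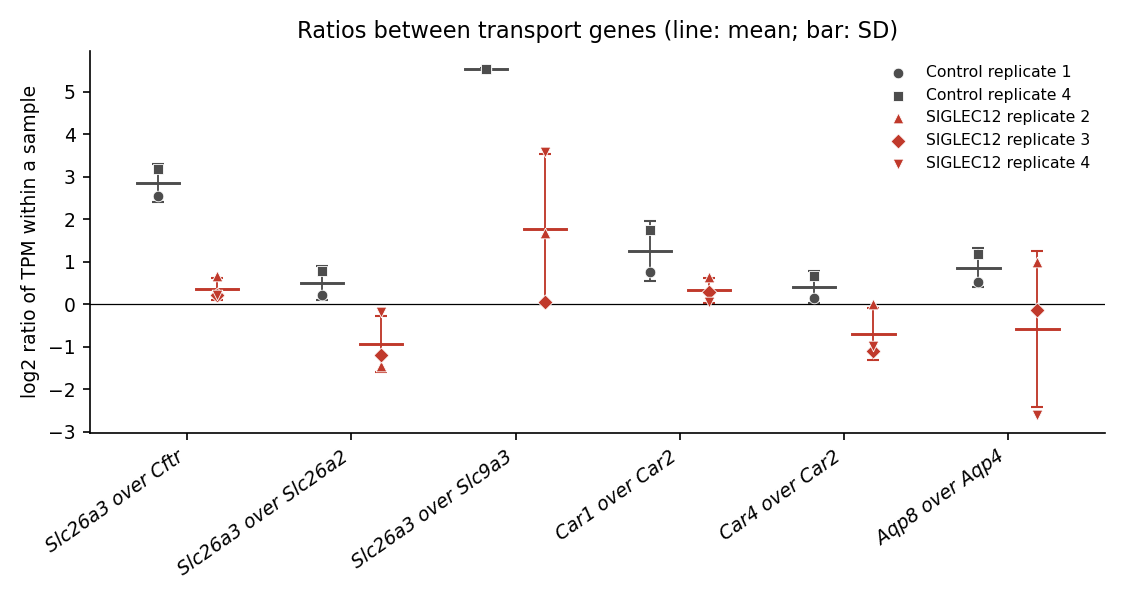
Log2 ratios of TPM between transport genes within a tumor (vertical axis, 0 meaning equal levels) for the 2 Control (grey) and 3 SIGLEC12 (red) tumors, with lines for means and bars for SD. In the first 5 pairs every red point lies below both grey points, and the ratio of Slc26a3 to Cftr is 2.54 and 3.18 in Control and between 0.21 and 0.67 in SIGLEC12.

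Rescaling each tumor to the same protein-coding total moved the median over all genes from 0.38 to 0.01 and that of the members from -0.07 to -0.55. On this scale 8 of 10 members had lower and 2 had higher means, where 5058 of the 10338 genes were lower and 5280 higher. Slc26a3 had a difference of -2.0 (SE 0.37, limma unadjusted p = 0.00184, adjusted p = 0.457) and again was the 1 member past the unadjusted threshold among those lower, beside 1.37% of all genes, and 0 members passed as higher, beside 0.368%. The groups did not overlap in 2 members that were lower, Slc26a3 and Aqp8 (-1.15), beside 16.8% of all genes, and in 0 that were higher, beside 15.6%. Car4 had a difference of -1.22 and Car1 of -1.07, both with overlap. Car2 (-0.17), Aqp4 (-0.04) and Scnn1a (-0.38) changed sign relative to the deposited scale, so no direction is given for them.

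Relative to the 12 columnar epithelium markers the contrast was larger. Slc26a3 gave 25.5 and 23.2 TPM per 1000 TPM of columnar markers in Control and 3.74, 2.43 and 3.20 in SIGLEC12. Each group was tight and the groups lay far apart, with a log2 difference of -2.99 (exact permutation p = 0.1). Control replicate 1, which held the least columnar RNA, was level with Control replicate 4 by this measure.

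Car1, Car4 and Aqp8 showed a graded pattern on the same measure. Car1 gave 86.7 and 102 per 1000 in Control and 45.3, 34.1 and 11.9 in SIGLEC12 (log2 difference -1.83, exact permutation p = 0.2). Car4 gave 56.9 and 47.7 in Control and 29.2, 12.9 and 5.75 in SIGLEC12 (-2.01, exact permutation p = 0.2). Aqp8 gave 11.5 and 8.72 in Control and 4.76, 3.20 and 0.63 in SIGLEC12 (-2.24, exact permutation p = 0.2). In all 3 genes every SIGLEC12 tumor was below both Control tumors, as held for 36.3% of all genes rescaled to the columnar total. Replicate 2 was the nearest to Control and replicate 4 the farthest. This order was not particular to these genes. It also held for Slc26a2, for Car2 (29.0, 27.8 and 11.4 in SIGLEC12) and for Scnn1a (5.37, 3.48 and 2.81 in SIGLEC12). It did not hold for Slc26a3, Slc9a3, Aqp4 or Cftr. Replicate 4 also had the largest columnar sum, 1902 TPM, by which the values were divided.

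Slc26a2 gave 21.9 and 13.4 per 1000 in Control and 10.2, 5.53 and 3.65 in SIGLEC12 (-1.54, exact permutation p = 0.2). Cftr gave 4.40 and 2.56 in Control and 2.35, 2.10 and 2.77 in SIGLEC12, with overlap (-0.49, exact permutation p = 0.3). Epcam, itself one of the 12 markers, lay between 69.7 and 94.5 in all 5 tumors. Krt20, a keratin of mature colonocytes, gave 27.1 and 29.6 in Control and 15.7, 13.7 and 29.4 in SIGLEC12. The mature colonocyte markers were mixed. The 8 tested summed to 194 and 184 per 1000 in Control and to 156, 125 and 149 in SIGLEC12. SIGLEC12 replicates 2, 3 and 4 lay below both Control tumors in 3, 7 and 6 of them, and above both in 3, 0 and 0. Of these 8, 2 were lower without overlap, beside 36.3% of all genes. They were Ceacam1 (100.0 and 92.4 in Control, 77.8, 67.1 and 86.6 in SIGLEC12) and Myo1a (19.3 and 16.8 in Control, 15.5, 10.3 and 12.4 in SIGLEC12). The columnar marker Vil1 (17.5 and 21 in Control, 15.3, 12.3 and 15.3 in SIGLEC12) was lower without overlap as well.

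When all genes were refitted after rescaling to the columnar total, 9 of 10 members had lower means, Cftr (-0.38) among them, and 1, Slc9a3, a higher one. Of all 10338 genes, 9662 had lower means on this scale, so the count of lower members was near the background. The members past the unadjusted threshold were 6, all lower, beside 10.8% of all genes in that direction. They were Slc26a3 (-2.68), Car4 (-1.92), Car1 (-1.79), Aqp8 (-1.75), Slc26a2 (-1.40) and Scnn1a (-1.02). In limma, Slc26a3 (adjusted p = 0.000185) and Aqp8 (adjusted p = 0.0185) passed the adjusted threshold, beside 3.74% of all genes. The groups did not overlap in 8 members that were lower, beside the 36.3% of all genes given above. The member median was -1.21 and the median of all genes -0.55. The factor applied to Control replicate 1 was 3.30, against 0.613 to 1.15 for the others. On this scale limma gave genes of like level nearly the same spread, so its p-values rest on a spread shared between genes. With Control replicate 1 left out, 5 members were lower past the unadjusted threshold on this scale, beside 3.02% of all genes.

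**Figure D3:**
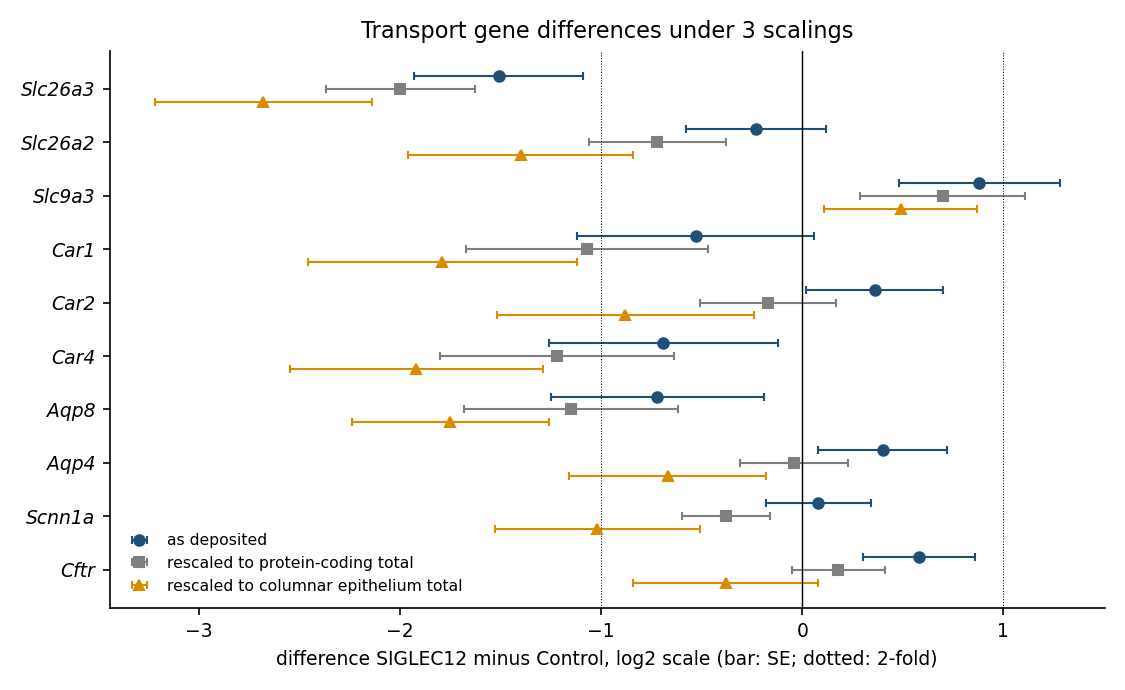
Difference SIGLEC12 minus Control of each transport gene on the log2 scale (horizontal axis, bars for SE, dotted lines at 2-fold) as deposited (blue), rescaled to the protein-coding total (grey) and rescaled to the columnar epithelium total (orange). Slc26a3 lies beyond the dotted line at -1 under all 3 scalings, at -1.51, -2.0 and -2.68, while Car2, Aqp4, Scnn1a and Cftr lie on both sides of 0.

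**Figure D4:**
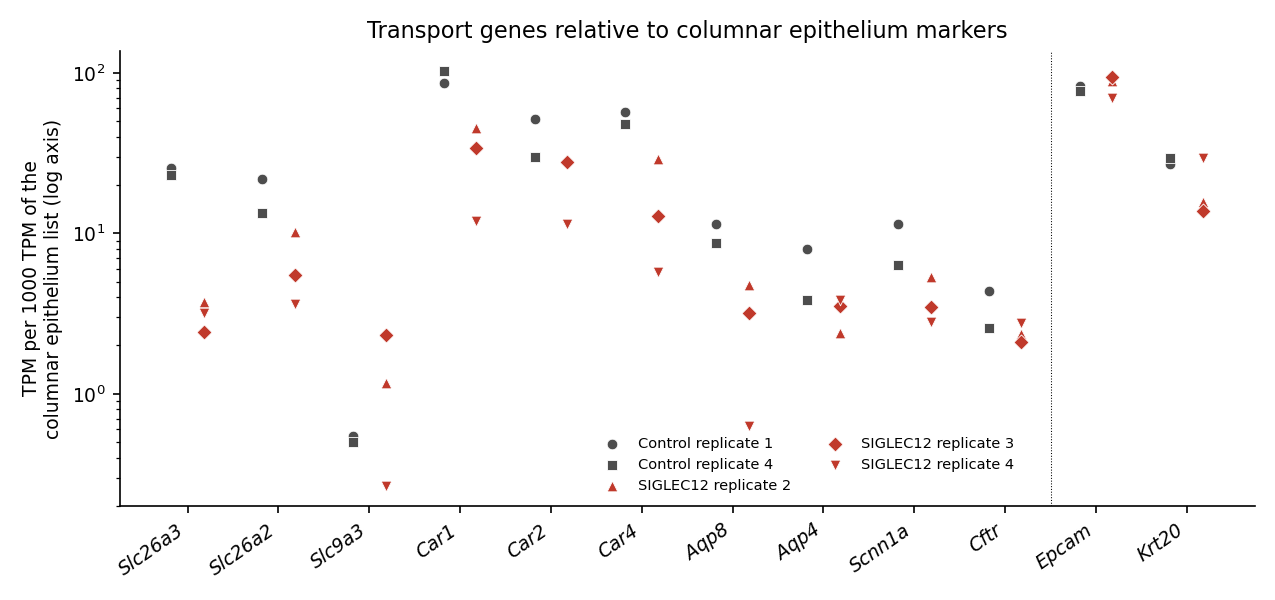
TPM of each transport gene per 1000 TPM of the columnar epithelium markers (logarithmic vertical axis) in the 2 Control (grey) and 3 SIGLEC12 (red) tumors, with Epcam and Krt20 to the right of the dotted line. The Slc26a3 points form separate clusters, at 23.2 and 25.5 in Control and between 2.43 and 3.74 in SIGLEC12, while Epcam lies between 69.7 and 94.5 in every tumor.

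Without Control replicate 1 and on the deposited scale, 2 members, Slc26a3 and Car1, were lower past the unadjusted threshold, beside 1.1% of all genes, and 0 were higher, beside 1.4%. The member median was -0.40 beside 0.26 over all genes. The remaining Control tumor is then assumed to vary like the SIGLEC12 tumors. The mature colonocyte markers, which do not include the members, depended on the scaling and on Control replicate 1. Of 10, 8 were tested and 0 passed the unadjusted threshold. As deposited 8 had higher means (median 0.61), as had 9016 of all 10338 genes (0.38). On the protein-coding scale 8 were likewise higher (0.16, beside 0.01 over all genes). On the columnar scale 7 were lower (-0.48), as were 9662 of all 10338 genes (-0.55). Without Control replicate 1 they divided into 4 and 4 (0.04, beside 0.26 over all genes). Krt20, the first of them, had a difference of 0.64 (SE 0.63, limma adjusted p = 0.462).

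The wider transport genes of the colon epithelium, 40 genes that are not members, were examined by class. Of these 35 passed the filter, and the 5 that did not, Slc26a6, Slc9a3r2, Pdzk1, Aqp7 and Aqp11, did not exceed 1.13 in any tumor. On the deposited scale 27 had higher and 8 lower means, with a median of 0.43 beside 0.38 over all genes. The unadjusted threshold was passed by 4 as higher, beside 3.97% of all genes, and by 0 as lower. Without Control replicate 1, 0 passed as higher and Atp12a as lower. Slc12a2, the basolateral cotransporter NKCC1 that loads chloride for Cftr, stood at 2.46 and 3.61 in Control and at 4.19, 4.08 and 4.89 in SIGLEC12 (1.35, SE 0.41, limma adjusted p = 0.101). Guca2b, which encodes the peptide uroguanylin, stood at 0.51 and 1.19 in Control and at 1.98, 2.01 and 2.44 in SIGLEC12 (1.29, SE 0.26, limma adjusted p = 0.0974). Guca2a (guanylin) had a difference of 1.13 (SE 0.39, limma adjusted p = 0.111) and Kcnn4, a basolateral potassium channel, one of 1.06 (SE 0.42, limma adjusted p = 0.136). The groups did not overlap in these 4 and in 11 of the 35 in all as higher, beside 54.1% of all genes.

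These higher values moved with the scaling. On the protein-coding scale none of the 4 passed the threshold (Atp12a, at -1.07, was the 1 wider gene that did, as lower), with Guca2b at 0.99 and Slc12a2 at 0.85, and on the columnar scale they lay between -0.04 and 0.60. On these scales the median of the 35 was -0.01 and -0.56, close to the medians of all genes, 0.01 and -0.55, where the members had -0.55 and -1.21. Clca4b had the largest value as deposited, 1.90, but stood at 1.01 in Control replicate 1 and 4.62 in Control replicate 4. The lowest were Atp12a, the colonic proton-potassium pump, at -0.59, the water channel Aqp3 at -0.57 and Scnn1g, the gamma subunit of ENaC, at -0.43. Scnn1g stood at 1.16 and 1.18 in Control and at 0.67, 0.69 and 0.86 in SIGLEC12, without overlap (SE 0.17, limma adjusted p = 0.132). Scnn1b, the beta subunit, had a difference of 0.01 (SE 0.27). On the protein-coding scale Scnn1g, Scnn1a and Scnn1b were at -0.72, -0.38 and -0.24, and differences between the subunits were not tested. By class the medians were 0.41 for 10 chloride and bicarbonate genes, 0.27 for 14 sodium genes, 0.64 for 6 potassium genes and 1.13 for the 3 genes of the guanylin pathway. Of the 2 water genes tested, 1 had a higher and 1 a lower mean.

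**Figure D5:**
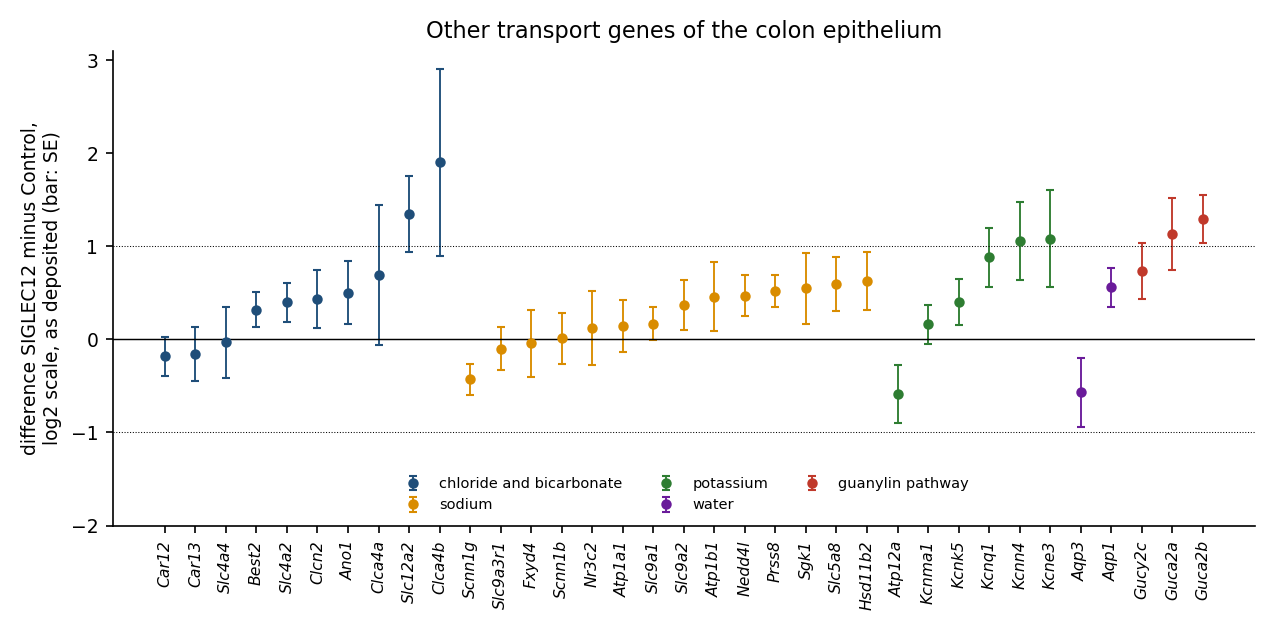
Difference SIGLEC12 minus Control on the log2 scale as deposited (vertical axis, bars for SE, dotted lines at 2-fold) for the 35 tested transport genes that are not members, coloured by class. Most points lie above 0, with a median of 0.43 that is close to the 0.38 of all genes, and no point lies below the line at -1.

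The genes most like Car1, the most abundant member, were those with the smallest root mean square distance between values centred on their own mean over the 5 tumors. Among 2721 protein-coding candidates they were Prdx6 (0.28), Prss27 (0.34), Eno3 (0.37), Slc15a1 (0.37) and Cyp2f2 (0.39). The list is a description over 5 tumors. Slc15a1, the peptide transporter PEPT1, stood at 2.19 and 3.39 in Control and at 3.32, 2.61 and 2.38 in SIGLEC12.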

How the data were processed

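Tumor RNA of 5 mice, 2 Control and 3 SIGLEC12 by the treatment labels, was analysed. A single table of log2 values was deposited, with 52143 genes and 1 column per sample, and 0 value columns were left unmapped. The deposited values are log2(TPM + 1), with a pseudocount of 1, since each back-transformed column summed to 999999 to 1000001. The submitters' processing notes name kallisto 0.45.0 and GRCm38, whereas the study's methods name a human reference. The labels name a stranded total RNA kit and the methods an mRNA kit. Whether technical libraries were pooled is not stated. The labels give a target depth but none per sample. TPM keeps no depth, so no counting interval is given. Of the gene identifiers, 98.45% were in GENCODE mouse release 21, the source of coordinates and biotypes.

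The members and gene lists were chosen with earlier results of these data known. All 10 members passed the filter, TPM of 1 or more in 2 or more samples, as did 10338 genes in all. Slc9a3 passed it only through SIGLEC12 replicates 2 and 3. The test was limma 3.58.1 under R 4.3.3 (lmFit, eBayes with trend, two-sided) with no covariate, and p-values were Benjamini-Hochberg adjusted over all genes tested. The thresholds were an adjusted p under 0.05, or an unadjusted p of at most 0.05 after the study's methods, each with at least 2-fold. Fold changes on this scale understate the change of low genes. Ratios, per-marker values and the protein-coding share were compared by a two-sided exact permutation test over the 10 assignments of 2 and 3 samples. The fit was checked on simulated data.

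The text names all members, wider transport genes past a threshold or with the 3 largest or 3 smallest differences, the first genes of other lists, and the 5 genes most like Car1 with a mean TPM of at least 5. Scnn1b, Vil1, Krt4, Krt13, Myo1a, Slc26a6, Slc9a3r2, Pdzk1, Aqp7 and Aqp11, and Car12 and Car13 in the closing observation, were named outside this rule after their values were seen. Alternatives were a pseudocount of 0.1, no filter, a TPM of at least 5, sample weights, other scalings and leaving out each sample.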

Additional observations from a re-analysis of the deposited data

How the results depend on the processing

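The labels give replicate numbers but name no pairing of the mice, so no paired analysis was made. Quantile normalization, the columnar geometric mean and the columnar total without Control replicate 1 were chosen after seeing the data. In fits without 1 Control tumor, the lone one is assumed to vary like the SIGLEC12 tumors. Members higher past the unadjusted threshold numbered 0 to 1 with 1 tumor left out. Members lower numbered 6 with the columnar total and the columnar geometric mean, 5 with the columnar total without Control replicate 1, and 0 to 2 with 1 tumor left out, the 0 without Control replicate 4. Over all genes, 410 were higher and 46 lower as deposited. With a pseudocount of 0.1, 1087 were higher, and with a TPM of at least 5, 19 were lower. Higher and lower genes numbered 38 and 142 with the protein-coding total, 46 and 141 with median-ratio size factors, 45 and 131 with quantile normalization, 34 and 1119 with the columnar total, 32 and 1138 with its geometric mean, and 29 and 309 with the columnar total without Control replicate 1. With 1 tumor left out they ranged from 143 to 1374 and from 49 to 135. Without Control replicate 4, 1157 genes passed the adjusted threshold as well. The cause of these shifts was not tested beyond the scaling itself. The member median of -0.07 was -0.53 with a TPM of at least 5, -0.55 with the protein-coding total, -0.56 with median-ratio factors and with quantile normalization, -1.21 with the columnar total, -1.20 with its geometric mean, -0.86 without Control replicate 1 on the columnar scale, and -0.50 to 0.35 with 1 tumor left out.

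Slc26a3 kept its direction in 15 of 15 alternatives, between -2.68 and -0.86, with limma adjusted p from 2.93e-05 to 0.457. Its groups did not overlap as deposited, so leaving out a tumor, sample weights, the pseudocount and the filter could not turn it. Only the other scalings could. Car4 (-1.92 to -0.08) and Aqp8 (-1.75 to -0.23) also kept their direction in 15 of 15, though a change of filter leaves any difference as it is. Slc9a3 kept its direction (0.49 to 1.78) in the 12 alternatives where it was tested, and here too only the other scalings could have turned it. It failed the filter with a TPM of at least 5 and without SIGLEC12 replicate 2 or 3, the tumors where it was highest. All 6 ratios kept their direction with any 1 tumor left out, which was certain in advance for the pairs whose groups did not overlap. With 1 tumor left out Slc26a2 ranged from -0.60 to 0.14, Car1 from -1.39 to 0.32 and Scnn1a from -0.20 to 0.37, the highest of each without Control replicate 4. In the order protein-coding, median-ratio, columnar total, quantile, columnar geometric mean, and columnar total without Control replicate 1, Car2 was -0.17, -0.18, -0.88, -0.28, -0.87 and -0.50, Aqp4 was -0.04, -0.05, -0.67, -0.01, -0.65 and -0.21, and Scnn1a was -0.38, -0.39, -1.02, -0.36, -1.01 and -0.64. Scnn1a was also -0.20 without Control replicate 1 and -0.06 without SIGLEC12 replicate 2. Cftr was -0.38 with the columnar total, -0.37 with the geometric mean and -0.07 without Control replicate 1 on the columnar scale.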

Other observations

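The wider transport list held a further pair of carbonic anhydrase genes. Car13, a cytosolic isozyme, stood at 2.82 and 1.92 in Control and at 2.38, 2.06 and 2.17 in SIGLEC12, with a difference of -0.16 (SE 0.29, limma adjusted p = 0.671). Car12, a membrane isozyme, stood at 2.35 and 2.36 in Control and at 2.42, 1.88 and 2.24 in SIGLEC12, with a difference of -0.18 (SE 0.21, limma adjusted p = 0.528). Both overlapped between the groups as deposited, and Car12 was lower without overlap on the protein-coding scale, at -0.62 (limma adjusted p = 0.457), as were 16.8% of all genes. On the columnar scale both passed the unadjusted threshold as lower, Car12 at -1.26 (limma adjusted p = 0.14) and Car13 at -1.27 (limma adjusted p = 0.137), as did 10.8% of all genes.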
